A study of Mus musculus with 15 samples.

Results

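The developmental transcription factor families form a group of open chromatin peaks assigned to genes whose symbols begin with Hox, Sox, Fox, Pax, Gata, Nkx, Lhx, Tbx, Klf, Meis, Pbx or Nr, or belong to the family of Six2 and Six3. Peaks come from ATAC-seq of mouse pancreatic islets, a method that reads where a transposase, Tn5, can insert adapters into accessible DNA. Members were taken by symbol from 4 tables of peaks deposited by the authors, 1 per comparison, with Foxa2, Nkx6-1 and Foxo1 left out by the rule. The rule found 69 of 13111 peaks in the comparison of genotype after partial pancreatectomy (PPx), 39 of 7826 in that of genotype before PPx, 65 of 12767 in that of PPx in KO-labelled mice and 42 of 8070 in that of PPx in controls. These peaks lie near 53 of the 10268 genes with a peak in any table.

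All mice were males aged 3 months with Arid1a Fl/Fl alleles and the MIP-rtTA transgene, in which the mouse insulin promoter drives a doxycycline-dependent activator. The KO-labelled ones had TRE-Cre in addition, a Cre that this activator turns on when doxycycline is given. The product of Arid1a is a subunit of SWI/SNF complexes, which slide and evict nucleosomes. Every mouse had doxycycline at 1 g/L in its drinking water for 2 weeks, and PPx, which removes much of the pancreas and is used to set off division of the beta cells left behind, followed 1 week after withdrawal. There were 4 KO-labelled and 4 control islet libraries from 6 days after PPx, and 3 KO-labelled and 4 control libraries from before it. The labels number samples and do not say whether each library came from a single mouse. Each library was made from 40000 islet cells of all types, so fewer cells of a type and less open chromatin per cell cannot be told apart.

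Transcription factors of these families bind DNA through a homeodomain, an HMG box, a forkhead, a paired domain, a T-box, or zinc fingers of the GATA, Krüppel-like or nuclear receptor kind. Many of them set the fate of pancreatic progenitors and then hold the identity of islet cells, such as Pax6 and Nkx2-2, both needed for the hormone-producing cell types in mouse. Others respond quickly to signals: the Nr4a receptors and several Krüppel-like factors are immediate early genes, and the Nr3c receptors bind steroid hormones. An open promoter is accessible to such factors and to the transcription machinery, but an ATAC peak measures neither a transcript nor its strand.

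Across the whole series, the authors' deposited tables give group means of normalised reads per peak and no values of single libraries, so depth per library is unknown. All group means, log2 differences, FDR values and library calls below are those of the authors' deposited tables, reads being the antilog of a mean, and the SE of a difference is implied by its size and its p-value. Each table carries its own shift: the median log2 difference over all its peaks was 0.61 for genotype after PPx, 0.00 for genotype before PPx, 0.83 for PPx in KO-labelled mice and 0.16 for PPx in controls. Values below are KO-labelled minus control or after minus before PPx, so the sign is that of the first group named, and each is read against this shift. A single Arid1a exon peak was higher, not lower, under the KO label, by 3.64 log2 units after PPx and 4.28 before it in the authors' deposited tables. The sources used here do not say whether that exon lies in the floxed segment, so the peak does not check the labels, and the mice are called KO-labelled throughout. Of 14 beta cell markers, 9 had a peak in the table of genotype after PPx (16 peaks), with mean reads that summed to 318 in KO-labelled and 221 in control mice. Among markers of other cells the same table listed 5 of 8 alpha, 3 of 7 delta and PP, 4 of 7 endothelial, 3 of 6 stellate and fibroblast, 2 of 7 leukocyte, 1 of 7 ductal, 1 of 11 acinar and 0 of 5 Schwann cell genes. Summed reads of the alpha list were 91.4 in KO-labelled and 71.6 in control mice, those of the delta and PP list 73.8 and 52.0, and those of the endothelial list 72.5 and 71.9. The stellate and fibroblast list summed to 67.6 in KO-labelled and 46.8 in control mice, leukocyte to 27.2 and 17.9, ductal to 19.0 and 15.8, and acinar to 8.88 and 8.34. Among all these marker peaks 2 were gained after PPx, at Ins1 (1.49, FDR 0.0154) and at Sst of the delta and PP list (1.12, FDR 0.0294, 39.9 reads in KO-labelled and 18.4 in control mice), beside 9.89% of all peaks in the authors' deposited table. The other 15 beta peaks summed to 269 reads in KO-labelled and 203 in control mice. The other 3 delta and PP peaks summed to 33.9 reads in KO-labelled and 33.6 in control mice. List medians were 0.56 for beta, 0.40 for alpha, 0.16 for delta and PP, 0.08 for endothelial, 0.47 for stellate and fibroblast and 0.68 for leukocyte peaks, beside the table's 0.61. In KO-labelled mice after and before PPx, the sums were 309 and 160 for beta, 91.6 and 50.1 for alpha, 66.7 and 44.5 for delta and PP, 46.4 and 41.0 for endothelial and 27.6 and 13.7 for leukocyte markers. There 3 marker peaks were gained, beside 7.45% of all peaks: Slc30a8 of the beta list (1.56, FDR 0.0484), Slc7a2 of the alpha list (1.63, FDR 0.0410) and Csf1r of the leukocyte list (2.01, FDR 0.0282 in the authors' deposited table). Without these peaks the sums after and before PPx were 287 and 153 for beta, 73.2 and 44.2 for alpha and 11.3 and 9.65 for leukocyte markers. These 5 marker genes were chosen for naming after their values were seen. Before PPx, beta markers summed to 118 reads in KO-labelled and 126 in control mice. Alpha markers summed to 35.2 and 45.6 in the same groups, delta and PP markers to 47.1 and 28.4 and endothelial markers to 34.5 and 34.2. In controls after and before PPx, the sums were 154 and 124 for beta, 59.2 and 50.8 for alpha and 56.5 and 38.8 for delta and PP markers. Ductal markers there summed to 7.06 and 9.19. The part of the marker lists in the results was not tested.

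The sequences that carry the gained promoters are printed first, because the later values refer to them. Shown are the 250 bases before the RefSeq transcription start (assembly GRCm38.p6, the mm10 build, written 5′ to 3′ on the strand of the gene) of the 3 called members for which all of these bases lie in the peak, Nr6a1, Klf6 and Klf13. Then come Nr4a2 (206 of the 250 bases in its peak) and Nr3c2 (all 250), the next members by FDR in the table of genotype after PPx whose peaks hold at least 250 of the 300 bases of the RefSeq window (250 before and 50 after the start), and Nr1h4, the promoter with the lowest log2 difference there. Capitals mark every match, on either strand, to one of 7 motifs: the CCAAT box bound by NF-Y, the ETS core CCGGAAG, the GC box GGGCGG, the cyclic AMP response element TGACGTCA, the TATA box as TATAAA, the AP-1 site TGACTCA and the E-box CACGTG.
Nr6a1 (chr2:38926462-38926711, minus strand): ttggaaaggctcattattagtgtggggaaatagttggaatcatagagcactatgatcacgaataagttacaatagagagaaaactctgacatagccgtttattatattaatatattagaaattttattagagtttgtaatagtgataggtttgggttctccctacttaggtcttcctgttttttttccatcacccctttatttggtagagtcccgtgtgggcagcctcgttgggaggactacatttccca
Klf6 (chr13:5861239-5861488, plus strand): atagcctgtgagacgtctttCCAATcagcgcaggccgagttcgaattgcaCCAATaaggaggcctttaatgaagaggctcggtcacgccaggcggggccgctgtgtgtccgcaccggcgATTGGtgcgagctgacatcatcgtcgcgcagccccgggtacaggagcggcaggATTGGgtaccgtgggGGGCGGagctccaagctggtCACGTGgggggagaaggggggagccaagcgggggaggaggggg
Klf13 (chr7:63938916-63939165, minus strand): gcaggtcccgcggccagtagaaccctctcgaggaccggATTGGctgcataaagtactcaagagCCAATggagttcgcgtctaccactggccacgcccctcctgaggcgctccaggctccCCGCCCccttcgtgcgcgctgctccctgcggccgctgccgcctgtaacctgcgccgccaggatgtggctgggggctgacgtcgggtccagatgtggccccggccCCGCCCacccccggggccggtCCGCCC
Nr4a2 (chr2:57124004-57124253, minus strand): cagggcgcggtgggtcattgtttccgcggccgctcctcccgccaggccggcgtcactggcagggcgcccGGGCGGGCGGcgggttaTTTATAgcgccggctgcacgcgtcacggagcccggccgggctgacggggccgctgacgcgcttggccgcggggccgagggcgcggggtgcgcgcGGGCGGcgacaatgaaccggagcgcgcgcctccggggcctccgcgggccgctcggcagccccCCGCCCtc
Nr3c2 (chr8:76902080-76902329, plus strand): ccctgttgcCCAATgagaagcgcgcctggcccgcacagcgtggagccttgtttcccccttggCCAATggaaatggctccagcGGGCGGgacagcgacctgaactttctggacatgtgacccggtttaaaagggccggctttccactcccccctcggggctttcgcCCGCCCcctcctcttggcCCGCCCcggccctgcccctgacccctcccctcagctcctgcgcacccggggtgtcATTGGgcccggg
Nr1h4 (chr10:89506659-89506908, minus strand): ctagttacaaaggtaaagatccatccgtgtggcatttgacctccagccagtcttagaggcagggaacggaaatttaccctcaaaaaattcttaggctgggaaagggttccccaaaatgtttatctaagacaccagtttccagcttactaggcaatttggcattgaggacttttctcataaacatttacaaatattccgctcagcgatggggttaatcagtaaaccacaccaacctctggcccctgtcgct

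The gained promoters do not share one layout of these letters. Klf6 held 4 CCAAT boxes, at 230, 200, 131 and 78 bases before the start, with 1 GGGCGG at 63 and 1 CACGTG at 43. Klf13 held 2 CCAAT boxes and 3 GGGCGG matches, the last of them 6 bases before the start. In Nr6a1 none of the 7 motifs was found and 37.6% of the bases were G or C, against 64.8% in Klf6 and 71.6% in Klf13. Nr4a2 had 4 GGGCGG matches, of which the pair at 181 and 177 overlap, and a TATAAA on the reverse strand, at 80.0% G or C. Nr3c2 had 3 CCAAT and 3 GGGCGG matches, and the Nr1h4 window, at 44.4% G or C, had none of the 7.

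RefSeq windows were at hand for 39 of the 53 member genes, 45 windows of 300 bases in all, which reach 50 bases past the start. CCAAT was found in 44.4% of them, against 40.9% of the 7620 windows of genes with a promoter peak and 37.4% of all 32851 windows. GGGCGG was found in 62.2% of member windows, against 63.0% and 35.7% in the same sets. CCGGAAG was in 2 of the 45 member windows (4.44%), against 16.2% of windows of genes with a promoter peak and 8.86% of all. TGACGTCA was in 4.44% of member windows against 3.16% and 1.79%, TATAAA in 4.44% against 7.18% and 13.6%, TGACTCA in 2.22% against 3.23% and 5.20%, and CACGTG in 8.89% against 9.54% and 7.15%. Of the 45 member promoter peaks in the table of genotype after PPx, 19 touch a window of their gene. In those windows CCGGAAG was in 0, against 19.4% of the 5540 windows that touch any promoter peak. CCAAT was in 52.6% against 44.2%, GGGCGG in 73.7% against 71.5% and CACGTG in 15.8% against 10.4% of the same sets. TGACGTCA was in 5.26% against 3.72%, TATAAA in 5.26% against 5.54% and TGACTCA in 0 against 2.69%. These shares are a description of the letters in fixed windows, with no test.

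Of the 13 families, 11 had a peak in the tables used here, and 49 of the 205 protein-coding RefSeq genes of the families did. Coverage ran from 3 of 4 Pbx genes, 11 of 17 Krüppel-like factors and 13 of 26 nuclear receptors to 9 of 42 forkhead, 3 of 19 Sox and 1 of 13 T-box genes. The Hox genes, which pattern the body axis, and the Lhx genes had none (0 of 39 and 0 of 8). Foxd2os, Gata6os, Nkx2-2os and Pax6os1 are antisense RNA genes that the rule takes by their symbols. They code for no transcription factor, and ATAC reads carry no strand that would assign them to such a gene rather than to its partner. The rule for named genes also lists Pax4, Foxa1, Foxa3, Foxm1, Sox5, Sox6, Sox9, Sox11, Sox13, Sox17, Gata4, Meis2, Six2, Six3, Six4, Lhx1, Tbx3, Nkx6-2, Nr1h2 and Nr2f6, and no peak assigned to any of them is in the tables used here.

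Joined by position over the tables, the member peaks made 73 loci, of which 37 were in all 4 tables. Another 29 were found only in 1 or both tables with KO-labelled libraries taken after PPx, and 2 only in the other tables. The former list 13111 and 12767 peaks over all genes, the latter 7826 and 8070. The same counts were not made over all loci, so 29 and 2 are no result about these families. Promoters, defined as within 3 kb of a start, made up 65.2% of member peaks in the table of genotype after PPx, against 61.4% of all its peaks. The same shares were 79.5% against 70.0% for genotype before PPx, 64.6% against 62.9% for PPx in KO-labelled mice and 73.8% against 66.7% for PPx in controls. Median mean concentration corresponded to 14.6 normalised reads per member peak after PPx, against 13.9 over all peaks of that table.

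After PPx, 6 of the 69 member peaks rose in KO-labelled islets and 0 fell, taking an FDR of 0.05 in the authors' deposited table. All 6 are promoter peaks, near the nuclear receptor genes Nr6a1 and Nr4a3, the Krüppel-like factor genes Klf6, Klf13 and Klf10, and the antisense gene Gata6os. The count is 8.70% of member peaks, against 9.89% of all peaks gained and 0.0839% lost in the authors' deposited table, so the share is near the background. Of the 6, 2 stayed called when the p-values of all listed peaks were adjusted together, and 0 when differences were taken from the table median. Promoter members were gained in 6 of 45 cases (13.3%), against 14.3% of all promoter peaks. At an unadjusted p under 0.05 in the authors' deposited table, 24 members were higher and 1 lower, 36.2% of members beside 33.6% of all peaks. The median log2 difference was 0.63 over members and 0.61 over all peaks, and 35 members lay above that table median and 34 below it. A deposited FDR of 1 stood beside 23 members, all of low concentration, and 46 had a lower value. At 21.7% of members no control library had a call, beside 28.4% of all peaks. A peak can be listed through its calls in KO-labelled islets alone, so such splits below are no separate support.

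**Figure D1:**
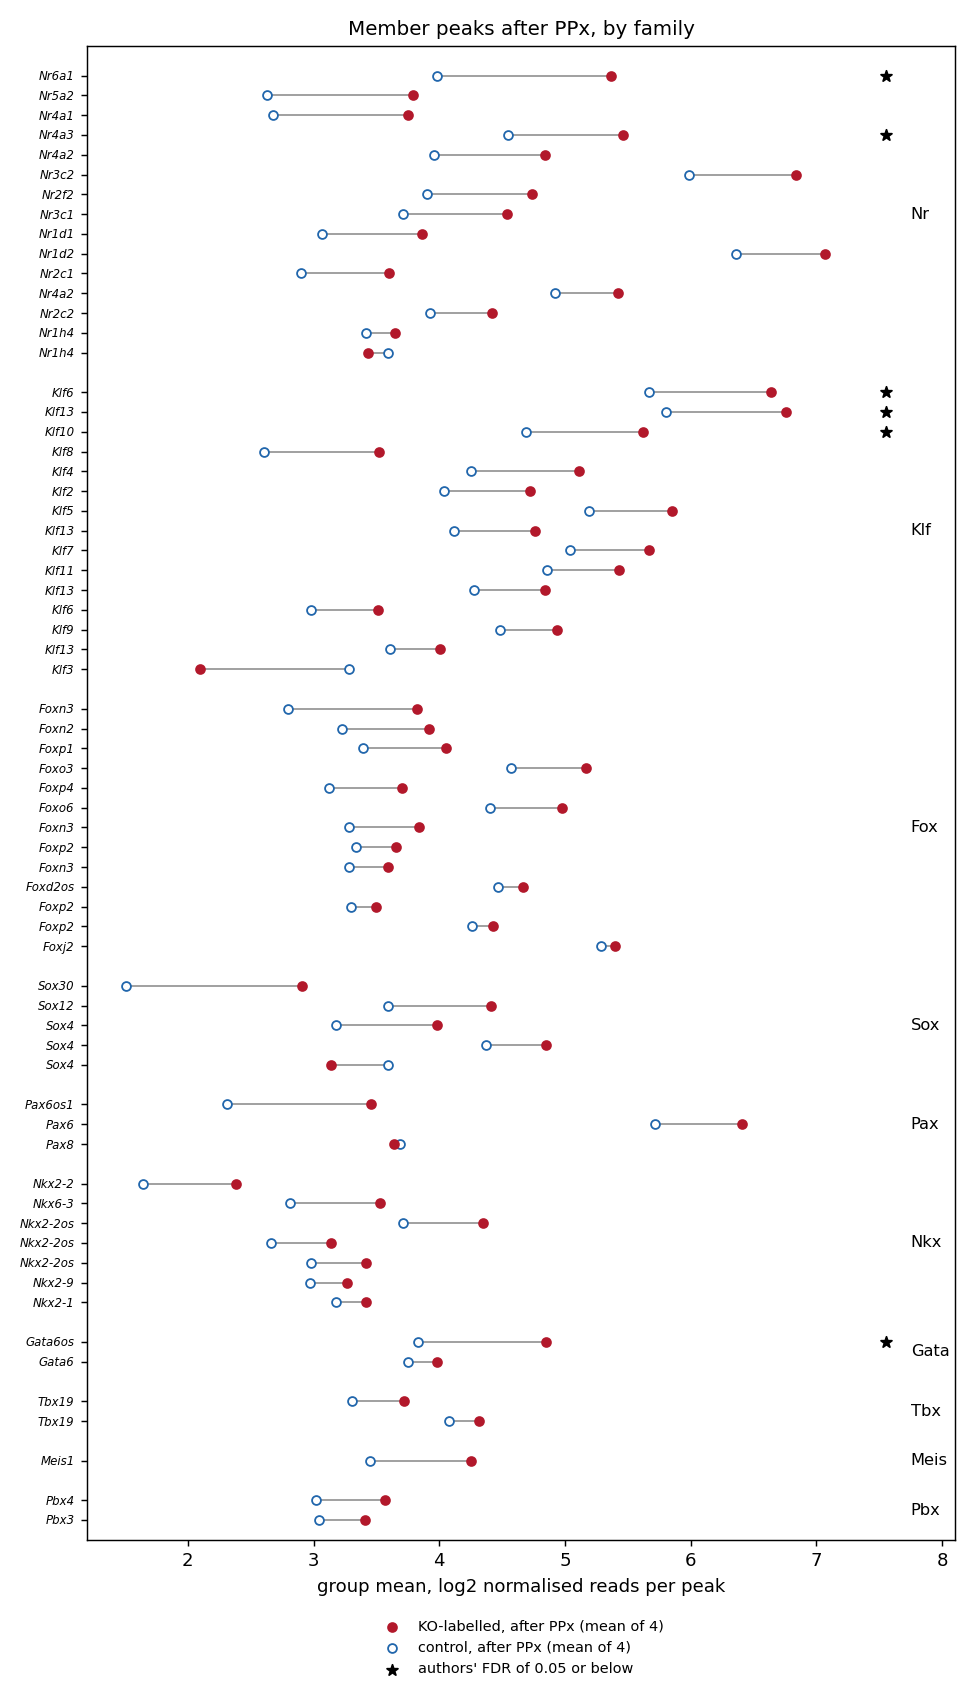
Group means of 65 of the 69 member peaks after PPx, in log2 normalised reads per peak, for KO-labelled (filled) and control (open) islets, each the authors' mean of 4 libraries, ordered by family and by difference; stars mark an FDR of 0.05 or below. Filled points lie right of the open ones at 61 of the 65 peaks drawn. Over the whole table, 90.3% of all peaks were higher in KO-labelled islets, beside 92.8% of the 69 members. The 6 stars stand beside Nr6a1, Nr4a3, Klf6, Klf13, Klf10 and Gata6os.

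Nr6a1 encodes germ cell nuclear factor, an orphan nuclear receptor that silences pluripotency genes in differentiating mouse embryonic stem cells. Its promoter peak (mm10 chromosome 2, 38926375 to 38926975) averaged 41.4 normalised reads in KO-labelled and 15.8 in control islets after PPx in the authors' deposited table. It was called in 4 of 4 KO-labelled and 2 of 4 control libraries. The log2 difference was 1.39 (implied SE 0.35, FDR 0.0212), a ratio of 2.62, and 98.4% of all peaks of the table had a smaller one. Adjusting the p-values of all listed peaks by the Benjamini-Hochberg method left it called at 0.0295. Its difference from the table median, 0.78, was not past the threshold (adjusted value 0.861).

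The 3 Nr4a genes, orphan receptors induced within minutes to hours of a stimulus, were all higher in the mean, but only the Nr4a3 peak passed. It lies 1 to 2 kb from a start (chromosome 4, 48042991 to 48043591), with 44.0 reads in KO-labelled and 23.4 in control islets in the authors' deposited table. Its log2 difference was 0.91 (implied SE 0.31, FDR 0.0392), with calls in 4 of 4 KO-labelled and 2 of 4 control libraries. The Nr4a2 start peak had 28.6 reads in KO-labelled and 15.6 in control islets, a log2 difference of 0.88 that just missed (FDR 0.0514 in the authors' deposited table). A second Nr4a2 peak gave 0.51 (FDR 0.177) from 42.8 and 30.3 reads in the same groups. The Nr4a1 promoter had 13.5 and 6.41 reads, a log2 difference of 1.07 at an FDR of 1, called in 2 of 4 KO-labelled and 0 of 4 control libraries in the authors' deposited table.

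The other nuclear receptors did not pass. Nr3c2, the mineralocorticoid receptor gene, had 115 reads in KO-labelled and 63.6 in control islets (log2 difference 0.85 in the authors' deposited table, FDR 0.0532). All libraries of both groups, 4 of 4 each, had a call there. Nr3c1, the glucocorticoid receptor gene, had 23.3 and 13.1 reads, 0.83 log2 units at an FDR of 0.0793, with calls in 3 of 4 KO-labelled and 0 of 4 control libraries. The clock repressors Nr1d2 and Nr1d1 had log2 differences of 0.71 (FDR 0.0938) and 0.79 (FDR 0.156), and Nr1d2, at 134 and 82.1 reads, was the most accessible member of the table. Nr2c2 gave 0.49 (FDR 0.263), and an intronic peak of Nr5a2, which encodes a receptor of exocrine pancreas and liver, gave 1.16 at an FDR of 1 in the authors' deposited table. At the low end, the promoter of Nr1h4, the bile acid receptor gene printed above, had 10.8 reads in KO-labelled and 12.0 in control islets, a log2 difference of -0.16 (FDR 0.783). Over the family of 15 peaks the median log2 difference was 0.83, and 11 lay above the table median. Of the 15, 14 are promoter peaks, and the median over all promoter peaks of the table was 0.71.

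Klf6, an immediate early zinc finger gene, had one of the most accessible member promoters (chromosome 13, 5860987 to 5861587), with 99.7 reads in KO-labelled and 50.9 in control islets in the authors' deposited table. The log2 difference was 0.97 (implied SE 0.32, FDR 0.0374). Every library of both groups had a call there. Klf13, whose product binds GC-rich promoter boxes, had 108 and 55.7 reads at its start peak (chromosome 7, 63938879 to 63939479). Its log2 difference was 0.96 (implied SE 0.32, FDR 0.0387), again with calls in 4 of 4 libraries of each group. Klf10, a gene induced early by TGF-beta, had 49.2 and 25.8 reads (chromosome 15, 38300432 to 38301032), a log2 difference of 0.93 in the authors' deposited table (implied SE 0.33, FDR 0.0444). The ratios of KO-labelled to control reads at these 3 promoters were 1.96, 1.95 and 1.91, and between 82.8% and 86.0% of all peaks of the table had a smaller difference.

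Klf13 had 3 further peaks in the same table, and they set the called promoter in context. A peak annotated as promoter, 13737 bp inside the gene from the RefSeq start, gave 0.56 (FDR 0.172), a distal peak before the gene 0.64 (FDR 0.153) and another 0.40 (FDR 0.457), so 1 of 4 passed. Klf6 likewise had a distal peak at 0.52 (FDR 1 in the authors' deposited table) beside its called promoter. Klf4, a pluripotency factor gene, had 34.5 reads in KO-labelled and 19.0 in control islets, 0.86 log2 units at an FDR of 0.0532. It was called in 3 of 4 KO-labelled and 0 of 4 control libraries. Klf11, which in human has been linked to inherited diabetes, gave 0.57 (FDR 0.127), and Klf9, a glucocorticoid target, gave 0.46 (FDR 0.278) in the authors' deposited table. The lowest log2 difference of any member was that of a distal peak near Klf3, whose product is mainly a repressor. It had 4.29 reads in KO-labelled and 9.71 in control islets (log2 difference -1.18, implied SE 0.56, FDR 1). Libraries with a call numbered 0 of 4 KO-labelled and 2 of 4 control.

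Gata6os shares its promoter region with Gata6, the gene of a GATA factor of the developing pancreas. Its peak had 28.8 reads in KO-labelled and 14.2 in control islets, a log2 difference of 1.01 in the authors' deposited table (implied SE 0.33, FDR 0.0351). Libraries with a call numbered 4 of 4 KO-labelled and 3 of 4 control. The peak also passed when all listed p-values were adjusted (0.0490). The distal peak assigned to Gata6 itself gave 0.23 (FDR 0.595).

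The families other than the nuclear receptor, Krüppel-like and GATA ones had 0 calls after PPx. The 14 forkhead peaks had a median log2 difference of 0.44 and 3 lay above the table median of 0.61. Of the 14, 5 lay outside promoters, and such peaks had a median of 0.38 over the whole table. The highest was a Foxn3 promoter peak at 1.02 (FDR 1), and an intron peak of Foxj2 gave 0.11 (FDR 0.783 in the authors' deposited table). Foxo3, a target of insulin signalling, had 36.0 reads in KO-labelled and 23.8 in control islets (log2 difference 0.60, FDR 0.110), and the Foxp1 intron peak gave 0.66 (FDR 0.176). Sox4, needed for endocrine differentiation in mouse, held the widest spread of the 10 genes with more than 1 peak: its promoter peak gave 0.80 (FDR 0.153), a nearer distal peak 0.48 (FDR 0.229) and a farther one -0.45 (FDR 1). Sox30, a male germ cell gene, had the highest log2 difference of all members, 1.40, from 7.52 reads in KO-labelled and 2.85 in control islets at an FDR of 1 in the authors' deposited table.

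Among the factors that keep islet cell identity, the Pax6 promoter peak was strongly accessible in both groups, with 85.0 reads in KO-labelled and 52.7 in control islets. Its log2 difference of 0.69 (FDR 0.103 in the authors' deposited table) lay near the table median. The other 2 Pax peaks were an intron peak of Pax6os1 at 1.15 (FDR 1) and one of Pax8, a thyroid factor gene, at -0.05 (FDR 0.924). A distal Nkx2-2 peak had 5.21 and 3.12 reads (0.74, FDR 1), and Nkx6-3, a stomach endocrine factor gene, gave 0.73 (FDR 1). The 7 Nkx peaks ran from that Nkx2-2 peak down to Nkx2-1 at 0.25 (FDR 1). The Hox cofactor gene Meis1 gave 0.80 (FDR 0.0907) at its promoter, and its partners of the Pbx family gave 0.55 at Pbx4 and 0.37 at Pbx3, both at an FDR of 1. The distal peaks of Tbx19, a pituitary factor gene, gave 0.41 (FDR 0.403) and 0.24 (FDR 0.593) in the authors' deposited table.

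The list of other islet transcription factors, which also holds Foxa2 and Nkx6-1, family genes that the rule leaves out, had peaks at 14 of its 34 genes after PPx. Of those 26 peaks 3 were gained and 0 lost, beside 9.89% of all peaks gained and 0.0839% lost. The 3 lie near Foxa2 (1.15, FDR 0.0329), Nkx6-1 (1.05, FDR 0.0360) and Rfx6 (1.01, FDR 0.0492 in the authors' deposited table). The median was 0.64, beside 0.61 for the table. In the other comparisons that list had 0 of 17 peaks gained for genotype before PPx, 1 of 24 for PPx in KO-labelled mice (a St18 promoter peak, 1.32, FDR 0.0374) and 0 of 16 for PPx in controls. The shares of all peaks gained there were 0.0128%, 7.45% and 0%.

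Before PPx, no member passed the test between KO-labelled and control islets: 0 of 39 passed in either direction by that FDR, where 0.0128% of all peaks were gained and 0% lost. Unadjusted, 0 members had a p under 0.05 in the authors' deposited table, against 3.14% of all peaks. The median was -0.03 over members and 0.00 over all, with 18 members above 0 and 21 below. Log2 differences ran from -0.67 at a promoter peak of Nr1h4 to 0.67 at the Sox4 promoter. Of the peaks gained after PPx, Nr6a1 had 21.0 reads in KO-labelled and 24.1 in control islets before it (-0.20, implied SE 0.42), and Nr4a3 had 27.5 and 33.1 (-0.27, implied SE 0.34). Klf13 had 73.0 and 69.1 (0.09, implied SE 0.32), Klf10 26.9 and 23.3 (0.22, implied SE 0.35) and Gata6os a log2 difference of -0.03 (implied SE 0.41). Klf6 had 82.7 reads in KO-labelled and 58.1 in control islets (0.51, implied SE 0.32), and these 6 peaks were all at an FDR of 1 in the authors' deposited table.

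Within the families before PPx, differences lay on both sides of 0. Nuclear receptors had a median of -0.17 over 10 peaks, from that Nr1h4 peak up to Nr4a2 at 0.63, and Krüppel-like factors 0.08 over 12 peaks, from the inner Klf13 promoter peak at -0.48 to Klf4 at 0.62. Forkhead peaks ran from Foxj2 at -0.35 to Foxn2 at 0.49, with Foxo3 at -0.14. Pax6 gave 0.29, while the 2 Meis1 peaks gave 0.33 and -0.20, Gata6 -0.02, Klf9 -0.20, Klf11 0.06, Nr1d2 0.12 and Nr2c2 -0.21. Sox4 gave 0.06 at a distal peak, Gata6os and Gata6 lay within 0.03 of 0, and the inner Nr4a2 peak gave -0.14. That table holds no Nkx member.

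PPx in KO-labelled mice went with 3 of 65 member peaks gained and 0 lost, near Foxp1, Sox12 and Klf13. This is 4.62% of members, against 7.45% of all peaks gained and 0% lost in the authors' deposited table. Adjusted over all listed peaks, 1 of the 3 stayed called, the Klf13 peak, and 0 did when differences were taken from the table median. Promoter members were gained in 2 of 42 cases (4.76%), against 9.73% of all promoter peaks. Unadjusted, 26 members were higher and 0 lower at a p under 0.05, beside 39.4% of all peaks in either direction. Every one of the 65 members had a positive log2 difference, as did 97.1% of all peaks, and the median of 0.84 stood beside 0.83 for the table. An FDR below 1 was deposited for 52 of the 65.

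Foxp1, a forkhead gene that with its relatives is needed for the growth of alpha cell number in young mice, was gained at a peak in intron 2 of 17 (chromosome 6, 99173435 to 99174035). It had 16.8 reads after PPx and 5.28 before it, a log2 difference of 1.67 in the authors' deposited table (implied SE 0.55, FDR 0.0426). Calls were made in 4 of 4 libraries after PPx and 1 of 3 before. Sox12, a close relative of Sox4, had 21.3 reads after PPx and 8.17 before it at its promoter (chromosome 2, 152398631 to 152399231), 1.38 log2 units (implied SE 0.45, FDR 0.0423). It was called in 3 of 4 libraries after and 0 of 3 before. The third gain was the inner promoter peak of Klf13 (chromosome 7, 63924804 to 63925404), at 26.7 and 10.9 reads, 1.29 log2 units in the authors' deposited table (implied SE 0.42, FDR 0.0410). Calls were made in 4 of 4 libraries after PPx and 0 of 3 before. In this comparison 29.2% of members had no call in any library before PPx, beside 31.9% of all peaks. A peak can be listed through its calls after PPx alone, so such splits are no separate support. No locus was gained both in this comparison and in that of genotype after PPx, which share the KO-labelled libraries taken after PPx. How many of all gained peaks were shared was not counted, so this is no result about these families.

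**Figure D2:**
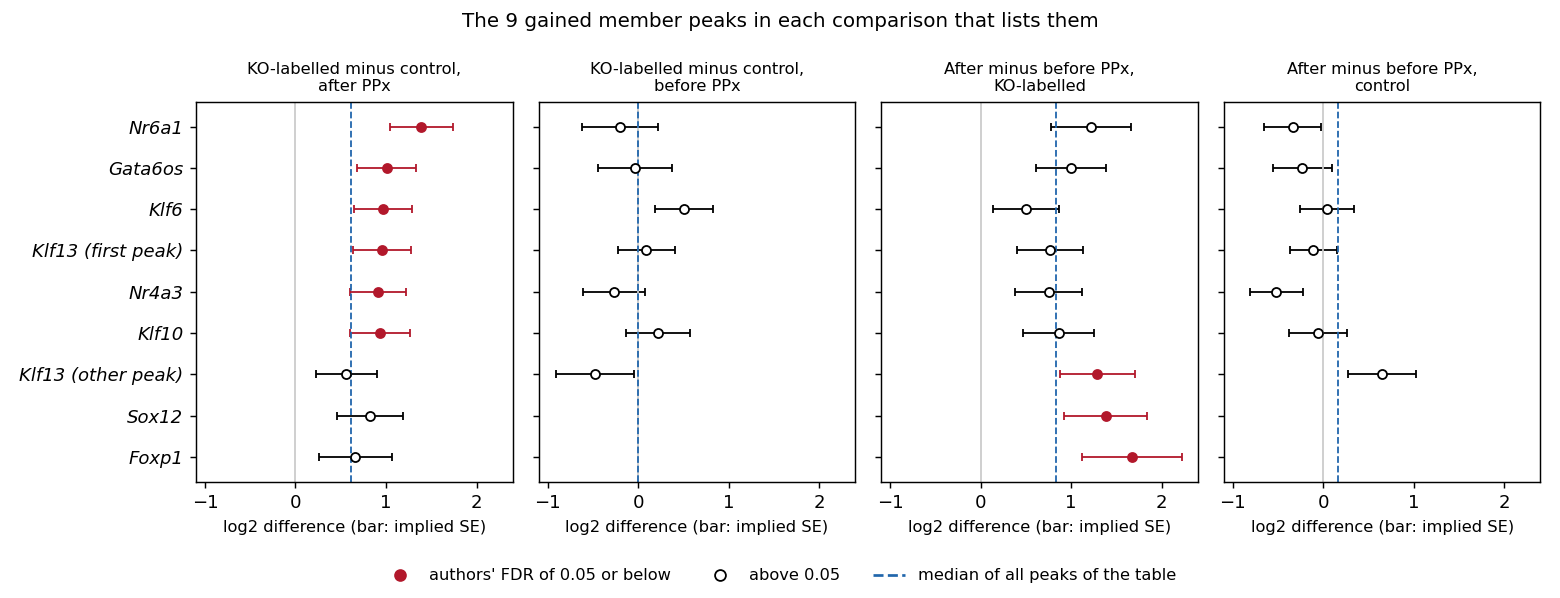
Log2 differences (points) and implied SE (bars) of the 9 gained member peaks in each of the 4 comparisons that lists them; red marks an FDR of 0.05 or below and the dashed line is the median of all peaks of the table. Nr6a1 lies at 1.39 for genotype after PPx and -0.20 before PPx, and Sox12 and Foxp1 have points in the 2 comparisons with KO-labelled islets taken after PPx.

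The promoters gained by genotype after PPx were above 0 here without passing, as every one of the 65 members was above 0. They were picked for high reads in the KO-labelled libraries after PPx, which are the first group here too. Their sign is thus no separate support. Nr6a1 had 40.8 reads after PPx and 17.5 before it in KO-labelled mice, a log2 difference of 1.22 (FDR 0.0510 in the authors' deposited table). Gata6os gave 1.00 (FDR 0.0608), Klf10 0.86 (FDR 0.0906), the Klf13 start peak 0.77 (FDR 0.0961), Nr4a3 0.75 (FDR 0.106) and Klf6 0.50 (FDR 0.239). Against the table median of 0.83, Nr6a1, Gata6os and Klf10 lay above and Klf13, Nr4a3 and Klf6 below. The Klf8 promoter had a larger difference from few reads, 1.75 from 11.5 reads after and 3.41 before, at an FDR of 1 in the authors' deposited table. The distal Gata6 peak was lowest, at 0.02 (FDR 0.990).

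Of the other named factors in KO-labelled mice, Foxo3 gave 1.01 (FDR 0.0539), Nr3c1 1.19 at 1 promoter peak and 0.49 at another (FDR 0.0625 and 0.424), Nr5a2 1.17 (FDR 0.109) and Nr4a1 1.07 (FDR 0.0969). Nr1d2 gave 0.87 (FDR 0.0732), Nr2c2 0.78 (FDR 0.128), Klf4 0.76 (FDR 0.123), Klf11 0.72 (FDR 0.109), Klf9 0.72 (FDR 0.159) and Meis1 0.77 (FDR 0.219) in the authors' deposited table. Pax6, with 0.59 (FDR 0.185), lay below the table median. The Tbx19 peaks lay above it, at 1.34 (FDR 0.0640) and 1.27 (FDR 0.0916). By family the medians were 0.94 for forkhead, 0.82 for Sox, 0.78 for nuclear receptor, 0.78 for Nkx and 0.77 for Krüppel-like peaks. The ranges were 0.43 (Foxp2) to 1.67 for forkhead, 0.25 (Nr1h4) to 1.22 for nuclear receptor, 0.50 to 1.75 for Krüppel-like and 0.64 to 1.16 (both Nkx2-2os) for Nkx peaks. Sox peaks ran from 0.67 at a distal Sox4 peak (FDR 0.186) to Sox12. Pax peaks ran from Pax6 to Pax8 at 1.11 (FDR 0.0982), and Pbx4 gave 0.35 (FDR 0.576). The other Sox4 peaks gave 0.78 (FDR 0.212) and 0.90 (FDR 1), the Nr4a2 peaks 0.87 (FDR 0.0940) and 0.64 (FDR 0.177), Nkx2-2 0.84 and Nkx6-3 1.11 (both FDR 1 in the authors' deposited table).

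PPx in controls moved no member past the threshold, with 0 of 42 gained and 0 lost, where 0% of all peaks were gained and 0% lost in the authors' deposited table. Unadjusted, 0 members had a p under 0.05, against 2.53% of all peaks. The median log2 difference was 0.20 over members and 0.16 over all, and 29 members were above 0 and 13 below. The range ran from -0.52 (implied SE 0.29) at Nr4a3, with 21.0 reads after and 30.1 before PPx, to 0.82 (implied SE 0.51) at the distal Klf3 peak, with 10.1 and 5.74. Nr6a1 had 19.6 reads after PPx and 24.8 before it (-0.34, implied SE 0.31). Nr4a3, Nr6a1 and the other peaks gained by genotype after PPx were picked against these same control libraries taken after PPx. Low values at them here are thus no separate support. Klf6 gave 0.04, Klf10 -0.06 at the peak gained elsewhere and 0.39 at another, and the Klf13 peaks -0.34 to 0.65. Pax6 gave 0.19, Foxo3 0.33, Meis1 -0.11, Nr1d2 0.26, Nr2c2 0.17, Klf9 -0.02, Klf11 0.17 and Gata6 -0.21, all at an FDR of 0.999 in the authors' deposited table. By family, forkhead peaks ran from Foxn2 at -0.31 to Foxd2os at 0.62, nuclear receptor peaks up to Nr4a2 at 0.32 with its other peak at 0.25, and the 2 Sox4 peaks gave 0.24 and 0.31. The 2 Nkx2-2os peaks gave -0.26 and 0.04, the 2 Tbx19 peaks -0.27 and 0.50, and Gata6os -0.23.

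**Figure D3:**
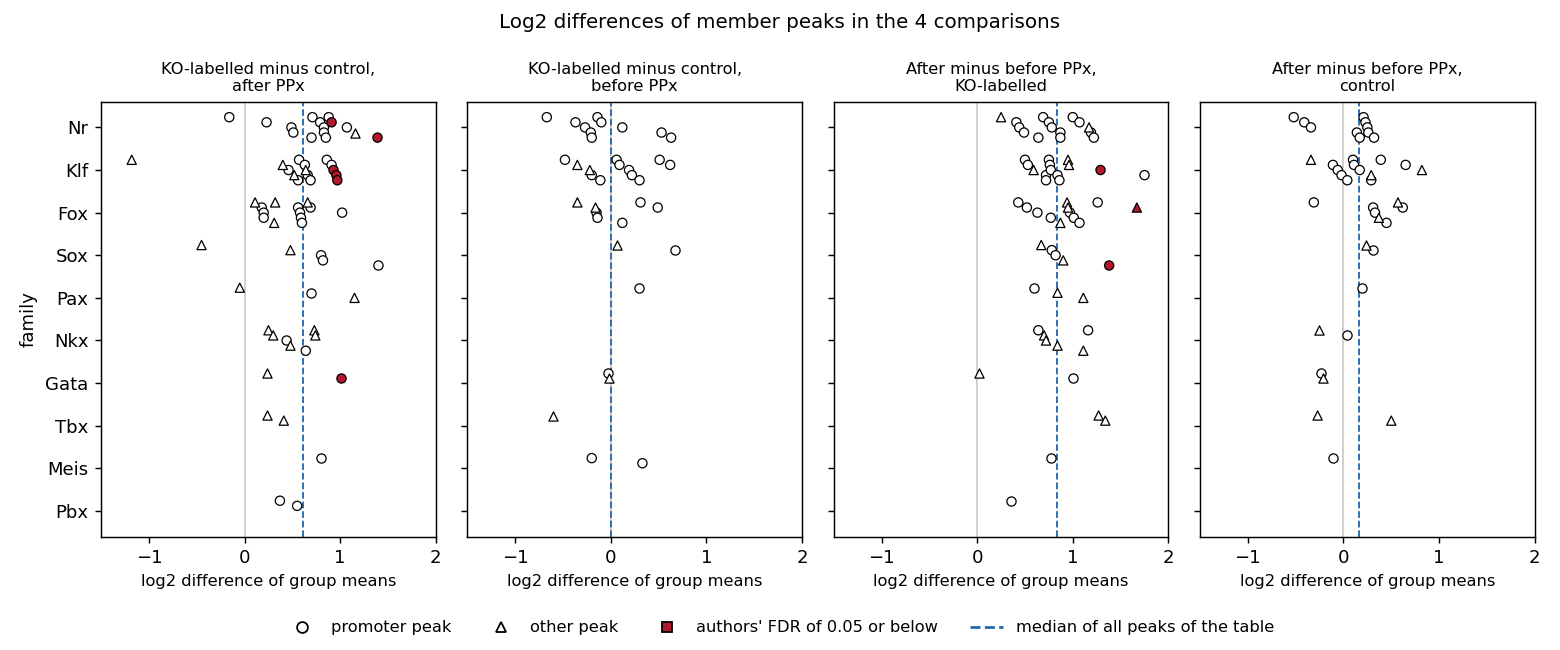
Log2 differences of member peaks by family (10 families drawn) in the 4 comparisons, as circles for promoter and triangles for other peaks, red at an FDR of 0.05 or below, with the median of all peaks of each table dashed. Members spread on both sides of the dashed line in each comparison, with 6 red points for genotype after PPx, 3 for PPx in KO-labelled mice and 0 in the others.

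Whether the effect of genotype differed between the states was tested for the peaks that overlap between both genotype tables, which share no library. The difference of the 2 log2 differences was set against the implied standard errors by a two-sided z test, adjusted by the Benjamini-Hochberg method over all 7504 matched peaks. Among 38 matched members 0 passed at 0.05, against 0.0267% of all matched peaks, and the lowest adjusted value of a member was 0.303. Unadjusted, 3 members were under 0.05, and 14.5% of all matched peaks were. The genotype difference was larger after PPx at 37 of the 38 members and smaller at Foxd2os (-0.11, SE 0.51). How many of all matched peaks went this way was not counted. The medians over all peaks of the 2 tables, 0.61 after PPx and 0.00 before it, differ in the same direction. The median change was 0.55 over members and 0.64 over all matched peaks.

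The member with the largest change between states, by size and by size over its SE, was Nr6a1, at 1.59 (SE 0.55), which joins 1.39 after PPx with -0.20 before it. By change over SE, Nr4a3 followed with 1.18 (SE 0.46), then Gata6os with 1.04 (SE 0.52) and Klf13 with 0.99 (SE 0.51) at a distal and 0.87 (SE 0.45) at the start peak. Their adjusted values lay between 0.303 and 0.345. By size alone, the inner Klf13 promoter peak with 1.04 (SE 0.55) and Meis1 with 1.00 (SE 0.58) came before these 2 Klf13 peaks. The median SE of such a change was 0.53 over members, beside a median change of 0.64 over all matched peaks.

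**Figure D4:**
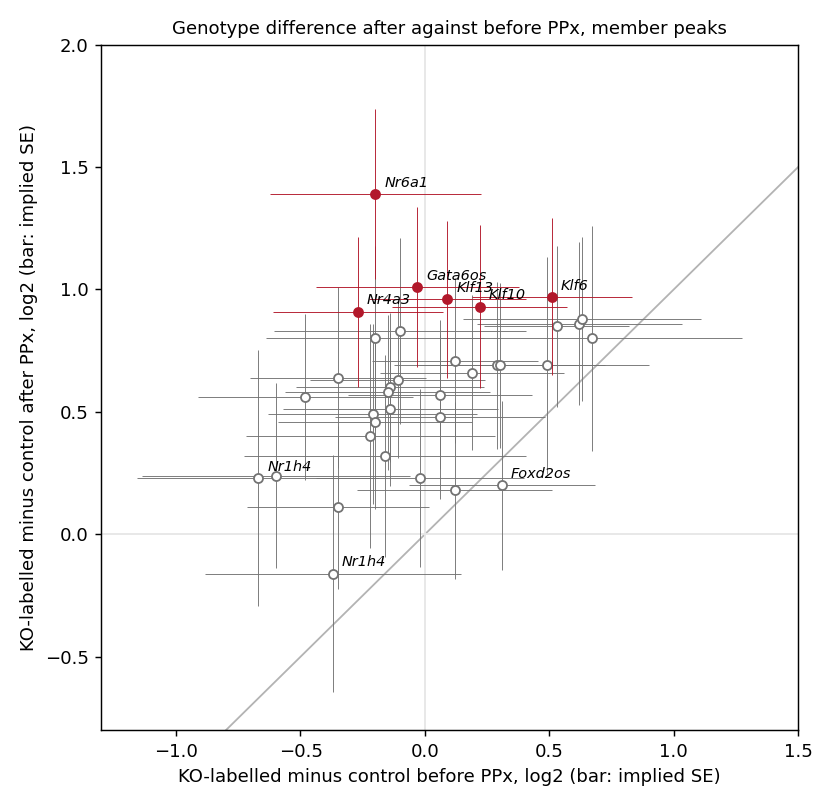
Log2 difference between KO-labelled and control islets after PPx (vertical) against the same before PPx (horizontal) for 36 of the 38 matched member peaks, with implied SE as bars; red marks an FDR of 0.05 or below after PPx and the diagonal is equality. Points lie above the diagonal at 35 of the 36, and Nr6a1 is farthest from it. The median change was 0.55 over the 38 matched members and 0.64 over all matched peaks.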

How the data were processed

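ATAC-seq libraries of mouse islets (15, 3 or 4 libraries per group, from the sample titles) were analysed from the authors' tables. Per the submitters' processing notes, the tools were cutadapt, BWA, MACS, DiffBind and ChIPseeker, on mm10, with no versions or roles. The deposited concentrations are log2 values of mean normalised reads per peak and group, and how libraries were scaled the sources used here do not say. The p-value and FDR of a deposited row come from a test of the authors that is not named, read here as measuring the spread between libraries. Depth is unknown.

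Repeated rows were dropped, folds turned so that KO-labelled and after PPx come first, and calls made at the authors' FDR of 0.05. Reads per peak are 2 raised to the deposited log2 mean. The standard error of a fold was its size over the two-sided quantile that a normal distribution gives for its p-value (for folds under 0.1 or p from 0.95, the median of 1 of 40 concentration bins). Peaks were matched by an overlap of 1 bp. The steps were tested on simulated data, drawn from a normal distribution with the implied standard errors. Such data cannot check those errors or the authors' test. Promoter windows are RefSeq's (GRCm38.p6), matched by symbol. Named genes were, per comparison, all called members, the highest and lowest of each family with 2 or more peaks, a fixed list of factors with islet, proliferation or metabolic roles, and the 5 members with the largest change between states over its standard error; other members are named where a group is described. A few members that this rule takes are not reported here by name and are not drawn, and counts and medians include them. Members, lists and tests were chosen with earlier results of these data known. Alternatives covered thresholds, adjustment, centring, peak choice, families and overlap. Python 3.11.15 with pandas 2.3.3, NumPy 2.4.6 and SciPy 1.17.1 was used.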

Additional observations from a re-analysis of the deposited data

How the results depend on the processing

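The count of members gained by genotype after PPx, 6 at the authors' FDR of 0.05, was 0 at an FDR of 0.01, 15 at 0.1, 2 when the p-values of all listed peaks were adjusted together, and 0 after centring on the median of all peaks. The count for PPx in KO-labelled mice, 3, was 0, 20, 1 and 0 under the same settings. The fall under centring follows from its construction, which takes the table's shift from every peak; for the joint adjustment the cause was not tested. The median for genotype before PPx, -0.03, was 0.09 over promoter peaks and 0.075 over peaks at or above the median concentration. The other 139 recomputed counts and medians stayed within 1.5 times or 0.1 log2 units. These include runs with each family left out, where the median after PPx ran from 0.58 to 0.67, and runs without the antisense symbols, a setting chosen after seeing the data. No single peak changed direction and was called. Leaving out single libraries was not run, since the tables hold group means, and single differences under the implied SE cannot be resolved. No paired analysis was possible because the labels give each sample its own number and the tables hold group means.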
